A study of Mus musculus with 10 samples.

Results

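Transcripts of 10 genes of the cytotoxic granule were followed across whole mouse tumours: the granzymes Gzma, Gzmb, Gzmc, Gzmd, Gzme, Gzmf and Gzmk, the pore-forming protein Prf1, the granule membrane protein Nkg7 and the granule proteoglycan Srgn. They were taken by symbol from a table of 18223 genes, and 10 of 10 were found. The tumours grew under the skin from cells of MC38, a colon carcinoma line of the mouse that can be grafted into mice with an intact immune system, and RNA from whole tumour was sequenced in 10 libraries. 5 libraries carry the label HTB, for high tumour burden, and 5 the label LTB, for low. In the treatment labels HTB stands for 2000000 and LTB for 500000, each over 14 days, taken here to be the cells placed and the time of growth. Both groups share the cell line, the site and the time, and no label records a tumour size, a mouse strain, an age or a drug. The labels do not say that the libraries came from separate animals, so the p-values measure only the spread between these libraries, which may be technical.

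Cytotoxic T cells and natural killer (NK) cells kill by releasing granules onto a bound target. Perforin opens the target's membrane, and granzymes, a family of serine proteases, enter and cleave proteins inside it. Serglycin, the product of Srgn, holds these cargo proteins in the granule. In mice the granzymes sit in separate gene clusters: Gzma and Gzmk encode trypsin-like enzymes, while Gzmb and its neighbours Gzmc to Gzmg lie in a row beside the mast cell protease genes. Gzmb is the best known inducer of apoptosis, and Gzmc to Gzmg are known from strongly activated T and NK cells.

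Each library held between 23070917 and 27185168 estimated reads. Values below are CPM, counts scaled to the library total with TMM factors, and were tested with edgeR's quasi-likelihood test, with Benjamini-Hochberg adjusted p-values over the 13469 genes that passed the filter on low counts and a threshold of 0.05. HTB replicate 2 stood apart: its 5 skeletal muscle markers summed to 12540 CPM, against 6.27 to 41.0 in the other HTB libraries and 2.79 to 4.58 in LTB, and its 4 adipocyte markers summed to 952 CPM while the other 9 libraries had 65.0 to 243. LTB replicate 1 had the highest sum of T cell markers, of macrophage markers and of mast cell markers. Results are therefore also given without these libraries. The labelled cell line could not be seen in its keratins, since Krt8, Krt18 and Krt19 reached at most 0.21 CPM in any library, and Krt18 had 0 reads in all of LTB. Other epithelial markers listed for the line were read. With Cdh1, Epcam and Vil1, the 6 markers summed to between 2.64 and 6.78 CPM per HTB library, while LTB libraries had 6.30 to 16.1. Cdh1 was lower in HTB (-1.36 ± 0.35 on the log2 scale, SE; adjusted p = 0.033), a call lost without LTB replicate 1. Epcam did not pass (adjusted p = 0.295).

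Prf1 (NCBI gene 18646), which encodes perforin, was read at 40.6, 5.64, 16.9, 30.1 and 50.1 CPM in HTB replicates 1 to 5, and at 132, 42.1, 53.7, 99.0 and 50.01 CPM in LTB replicates 1 to 5. The groups overlapped through HTB replicate 5, which lay at the level of LTB replicate 5, and HTB replicate 2 was 6.1-fold below the mean of the other HTB libraries. The mean was 28.7 ± 17.8 CPM (SD, n = 5) in HTB and 75.5 ± 38.9 CPM (n = 5) in LTB, which gives -1.40 ± 0.52 (SE) as the log2 fold change, and this did not pass (adjusted p = 0.104). Without HTB replicate 2 it was -1.13 (adjusted p = 0.0604), and without LTB replicate 1 it was -1.09 (adjusted p = 0.224).

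Gzmb (NCBI gene 14939), the granzyme that cleaves after aspartate and triggers caspases, fell in HTB. It had 67.9, 10.3, 26.6, 41.1 and 61.4 CPM in the HTB libraries and 262, 80.5, 90.0, 175 and 105 CPM in the LTB libraries, in replicate order. Every HTB library lay below every LTB library. The mean was 41.4 ± 23.9 CPM (SD, n = 5) in HTB against 142 ± 76.5 CPM (n = 5) in LTB, which is 3.44-fold higher in LTB. The log2 fold change was -1.78 ± 0.49 (SE; adjusted p = 0.0408). This call was close to the threshold: it was lost without HTB replicate 3, 4 or 5 and without LTB replicate 1, 3, 4 or 5, with adjusted p between 0.0579 and 0.0989, and it held without HTB replicate 2 (0.0213).

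Gzma (NCBI gene 14938), a trypsin-like granzyme abundant in NK cells, had 7.76, 3.57, 9.81, 11.6 and 2.12 CPM in HTB and 38.1, 11.9, 6.58, 38.1 and 25.4 CPM in LTB. LTB replicate 3 lay inside the HTB range, while the other LTB libraries were above every HTB library. The log2 fold change, -1.79 ± 0.56 (SE), was as large as that of Gzmb but missed the threshold (adjusted p = 0.0625). It passed without LTB replicate 3 (-2.03, adjusted p = 0.0437) and with the DESeq2 Wald test (adjusted p = 0.00601).

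Gzmk (NCBI gene 14945), the other tryptic granzyme, was close to the detection limit, with 44 reads over the HTB libraries and 156 over the LTB libraries. It had 0.911, 0.457, 0.0366, 0.109 and 0.147 CPM in HTB and 2.88, 1.21, 1.37, 0.496 and 0.178 CPM in LTB, and the groups overlapped. Its log2 fold change of -1.88 ± 0.82 (SE) was the most negative of the 10 genes and did not pass (adjusted p = 0.157).

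Gzmc, Gzmd, Gzme and Gzmf are close copies of each other, which bears on how reads can be assigned. The first 75 coding bases of coding exon 2 are shown because they hold both stretches that are alike across the copies and stretches that are not. They are coding bases 56 to 130 in GENCODE M21 (build GRCm38), read 5′ to 3′ on the minus strand of chromosome 14, with capitals where a gene differs from Gzmd, for example chr14:56131306-56131380 for Gzmd and chr14:56261160-56261234 for Gzmb.
Gzmd: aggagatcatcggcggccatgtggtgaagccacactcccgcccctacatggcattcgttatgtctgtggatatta
Gzme: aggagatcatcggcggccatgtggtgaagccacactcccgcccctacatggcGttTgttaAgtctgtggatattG
Gzmg: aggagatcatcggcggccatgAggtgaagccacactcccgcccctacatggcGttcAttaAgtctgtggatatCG
Gzmf: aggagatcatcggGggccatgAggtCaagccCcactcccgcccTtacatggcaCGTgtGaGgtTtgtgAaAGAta
Gzmc: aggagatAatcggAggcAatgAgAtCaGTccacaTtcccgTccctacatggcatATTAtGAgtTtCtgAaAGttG
Gzmb: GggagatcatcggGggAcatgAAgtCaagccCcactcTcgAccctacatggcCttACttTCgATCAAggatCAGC
Within these bases Gzme differed from Gzmd at 4 positions, Gzmg at 6, Gzmf at 15, Gzmc at 22 and Gzmb at 23. Over the whole aligned coding sequence Gzmd and Gzme were 94.8% identical, Gzmd and Gzmg 88.7%, Gzmd and Gzmf 84.7%, and Gzmb and Gzmc 76.6%. Of all 50-base windows of the coding sequence, 21.9% in Gzme and 19.4% in Gzmd also occurred in another granzyme, against 3.2% in Gzmc, 2.0% in Gzmf and 0 in Gzma, Gzmb and Gzmk. No 100-base window was shared. The deposited estimated reads of Gzmd were fractional in all 10 libraries, and those of Gzme were whole in 1 and those of Gzmc and Gzmf in 2, whereas Gzma, Gzmb, Gzmk, Prf1 and Nkg7 had whole values throughout. Srgn, which is no copy of a granzyme, had whole values in 5 of 10 libraries. How fractional reads arose is not given in the labels. With such similar sequences the separate values of Gzmc to Gzmf are uncertain, and their sum is given as well.

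Gzmc (NCBI gene 14940) had 144, 12.2, 54.0, 93.7 and 134 CPM in HTB and 378, 148, 163, 294 and 155 CPM in LTB. All HTB libraries were below all LTB libraries, yet the log2 fold change of -1.38 ± 0.54 (SE) did not pass (adjusted p = 0.122). It passed without HTB replicate 2 (-1.10, adjusted p = 0.0483) and not when LTB replicate 1 was left out too (-0.84, adjusted p = 0.0751).

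Gzmd (NCBI gene 14941), Gzme (14942) and Gzmf (14943) spread widely within each group. Gzmd had 271, 11.5, 67.7, 154 and 324 CPM in HTB and 763, 151, 242, 506 and 182 CPM in LTB. Gzmf had 365, 14.1, 110, 279 and 514 CPM in HTB and 930, 180, 314, 644 and 228 CPM in LTB. For both genes HTB replicates 1, 4 and 5 lay inside the range of LTB, and HTB replicate 2 had the lowest value of all 10 libraries by a wide margin, 17.7-fold below the mean of the other HTB libraries for Gzmd and 22.5-fold for Gzmf. Gzme followed the same order of libraries within HTB, between 5.23 and 112 CPM, and ran from 57.5 to 275 CPM in LTB. The log2 fold changes were -1.15 ± 0.74 (SE) for Gzmd, -1.20 ± 0.69 for Gzme and -0.84 ± 0.75 for Gzmf, with adjusted p of 0.323, 0.274 and 0.485. The estimates moved with single libraries: without LTB replicate 1 they were -0.70 for Gzmd, -0.79 for Gzme and -0.41 for Gzmf. Without HTB replicate 2 that of Gzmf was -0.53, and without both libraries the 3 genes stood at -0.40, -0.49 and -0.11. Summed over Gzmc, Gzmd, Gzme, Gzmf and the neighbouring copy Gzmg, the level was 1168, 51.7, 322, 749 and 1430 CPM in HTB and 3179, 697, 1084, 2219 and 846 CPM in LTB.

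Nkg7 (NCBI gene 72310) encodes a membrane protein of cytotoxic granules that is needed for their release. It had 14.3, 6.22, 6.30, 6.63 and 8.06 CPM in HTB and 56.4, 23.9, 25.7, 25.1 and 18.1 CPM in LTB, so no libraries overlapped. The mean was 8.30 ± 3.44 CPM (SD, n = 5) in HTB and 29.8 ± 15.1 CPM (n = 5) in LTB. The log2 fold change was -1.84 ± 0.34 (SE), 3.59-fold lower in HTB, and passed with an adjusted p of 0.00899. Unlike the granzymes of chromosome 14, it was not much lower in HTB replicate 2, which lay 1.42-fold below the mean of the other HTB libraries.

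Srgn (NCBI gene 19073) had 43.4, 37.3, 27.1, 47.8 and 43.8 CPM in HTB and 238, 60.3, 90.0, 115 and 173 CPM in LTB. The HTB libraries were close together, within 1.76-fold, and all lay below LTB. Its mean was 39.9 ± 8.06 CPM (SD, n = 5) in HTB and 135 ± 70.9 CPM (n = 5) in LTB, and the log2 fold change of -1.76 ± 0.33 (SE) passed with an adjusted p of 0.00966. Serglycin is also made by mast cells, macrophages, neutrophils and platelets, so its transcripts are not specific to cytotoxic cells. Nkg7 and Srgn passed in each of the 18 alternative settings tried, with log2 fold changes between -2.13 and -1.39 for Nkg7 and between -1.95 and -1.43 for Srgn.

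**Figure D1:**
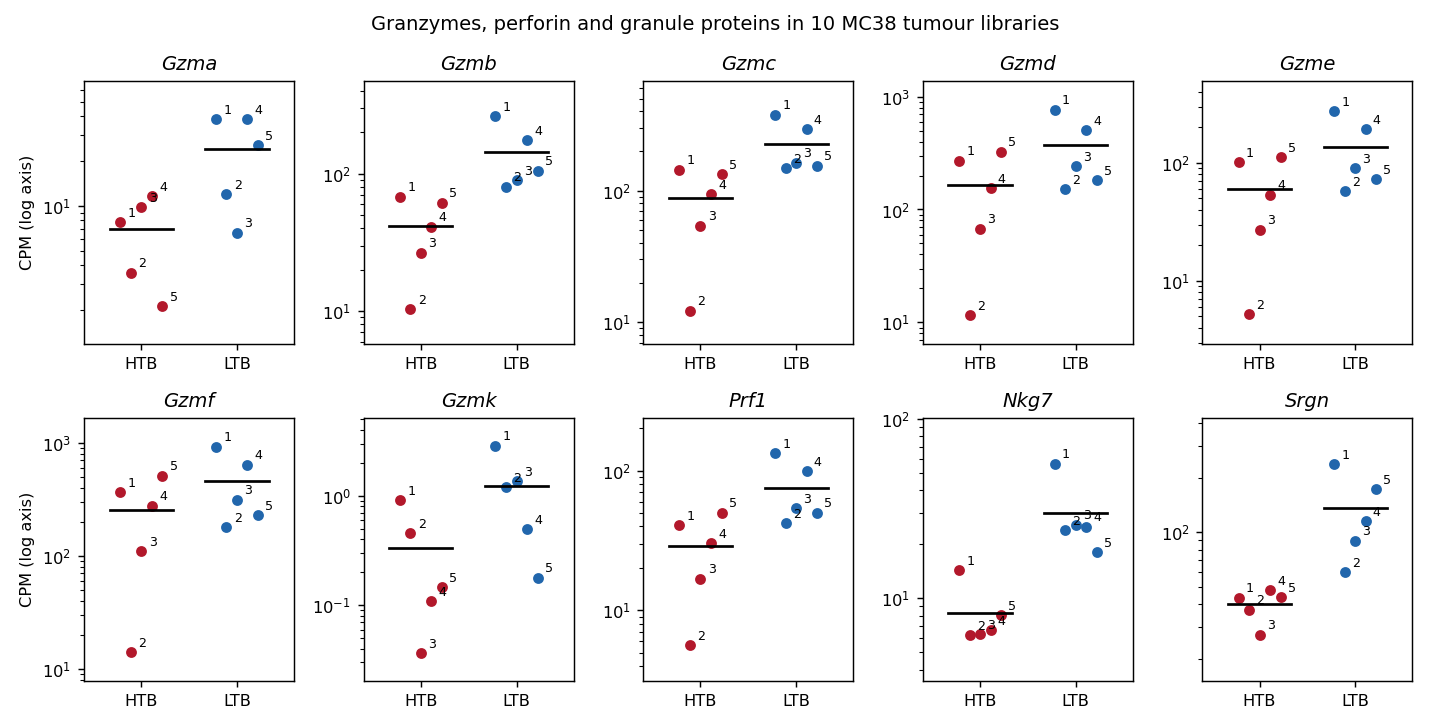
Level of each of the 10 genes in every library, in CPM on a log axis; points are libraries with their replicate number, and black lines are group means. HTB replicate 2 is the lowest point for Gzmb to Gzmf and Prf1, and Gzmb, Gzmc, Nkg7 and Srgn show no overlap between HTB and LTB.

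Of the 10 genes, all of which were tested, 3 were lower in HTB (Gzmb, Nkg7 and Srgn) and 0 higher, beside 7.51% of all genes tested called lower, 3.91% called higher and 11.4% called in either direction. In 4 of 10 (Gzmb, Gzmc, Nkg7 and Srgn) all HTB libraries lay below all LTB libraries, beside 7.06% of all genes. The median log2 fold change over the 10 genes was -1.58, and over all genes tested 0.02. The log2 fold change was below 0 for all 10 genes, from -1.88 to -0.84. The genes share libraries and, in part, sequence, so they are not independent. The count of genes lower in HTB was 4 without HTB replicate 2, 2 without LTB replicate 1 and 3 without both. Of all genes tested, 12.7%, 6.01% and 12.4% were called lower in these fits, in that order. Of the 10 genes, the authors' deposited table gives 4 a q below 0.05: Srgn (1.48e-06), Nkg7 (2.36e-06), Gzma (0.00722) and Gzmb (0.0111). These were whole tumours, so fewer cells that carry granules and less RNA per cell cannot be told apart.

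**Figure D2:**
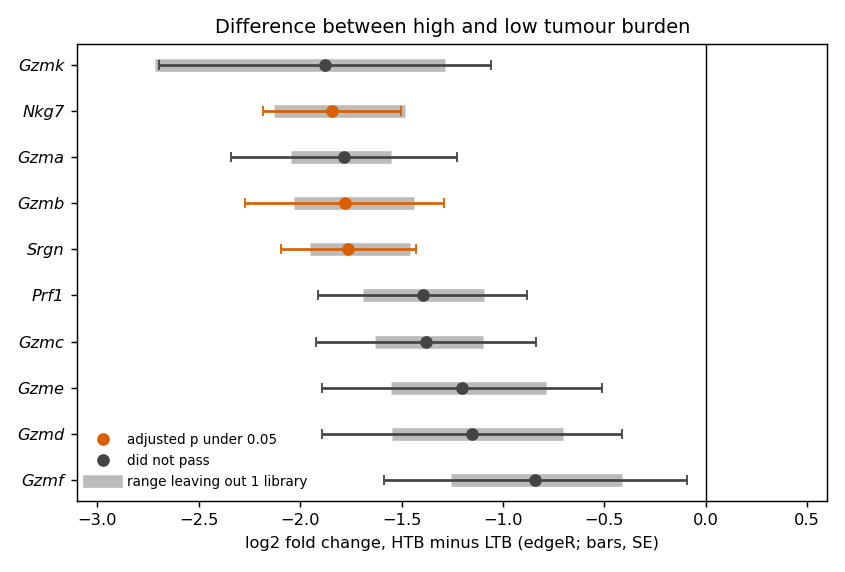
Log2 fold change, HTB minus LTB, of the 10 genes from edgeR, with SE as bars; orange marks adjusted p below 0.05, and grey bands span the estimates when each library was left out in turn. All estimates lie left of 0, from -1.88 for Gzmk to -0.84 for Gzmf, and the genes that passed are Nkg7, Gzmb and Srgn.

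Levels can be compared between genes only per length, here as CPM per kilobase of the transcript length implied by the authors' group means. On that scale Gzmf was the highest of the 10 in 9 of 10 libraries and Gzmd the second in 9, while Gzmb was below Gzmc in 10 of 10 and Gzmk was lowest in 10 of 10. In HTB replicate 2 the highest was Srgn. Among 17045 genes ranked by mean level per length, Gzmf stood at place 147 in LTB and 220 in HTB, Gzmd at 169 and 338, Gzmb at 751 and 2988, and Prf1 at 2477 and 5890. The transcripts of Gzmd and Gzmf thus ranked among the most abundant of the tumours, in a cluster whose best studied gene, Gzmb, was well below them. The mean for Gzmf was 558 CPM per kilobase in LTB and 312 in HTB, and for Gzmb it was 107 and 31.0. Prf1, Nkg7 and Gzma changed places between libraries, so the lower end of the order was not stable, and neither was that of Srgn and Gzme.

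The make-up of the granzyme transcripts was asked next, as the percent of each of the 7 granzymes in their summed CPM per kilobase. That sum was 1113, 64.2, 341, 739 and 1345 in HTB and 3046, 714, 1043, 2132 and 871 in LTB. HTB replicates 1, 4 and 5 were therefore within the LTB range in the summed transcript of these 7 granzymes. The sum leaves out Gzmg, whose mean was 212 CPM per kilobase in HTB and 500 in LTB, so the percentages hold among the 7 only. Gzmd, Gzme and Gzmf together made up 57.4 to 84.7% of the sum in HTB and 64.9 to 77.2% in LTB. Gzmf alone made up 39.6 ± 7.99% (SD, n = 5) in HTB and 34.6 ± 3.11% (n = 5) in LTB, and Gzmb 6.00 ± 3.49% and 7.30 ± 1.32%. None of the 7 shares passed a two-sided exact permutation test (Benjamini-Hochberg adjusted p between 0.678 and 0.96; the smallest p that 5 against 5 allows is 0.0079, unadjusted), and none had an unadjusted p below 0.05.

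HTB replicate 2 decides that result. Its granzyme transcripts held 12.0% Gzmb and 7.10% Gzma, against 3.42 to 5.83% Gzmb in the other HTB libraries, and 26.6% Gzmf against 39.2 to 46.5%. Without it, the share of Gzmf was higher in every HTB library than in every LTB library (30.5 to 37.1%), a difference of 8.28 percentage points (exact permutation p = 0.00794, adjusted 0.0278). The share of Gzmb was then lower in every HTB library than in LTB (6.14 to 9.02%), with an HTB minus LTB difference of -2.81 percentage points and the same exact permutation p. That p is the smallest that 4 against 5 allows, so it states only that the libraries of the groups did not overlap. The shares of the other 5 granzymes did not pass without HTB replicate 2, and no share passed when any other library was left out instead. As shares of a sum they depend on each other, and Gzmf is among the genes whose reads are uncertain. The shares without HTB replicate 2 were not tested with Gzmg in the sum.

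**Figure D3:**
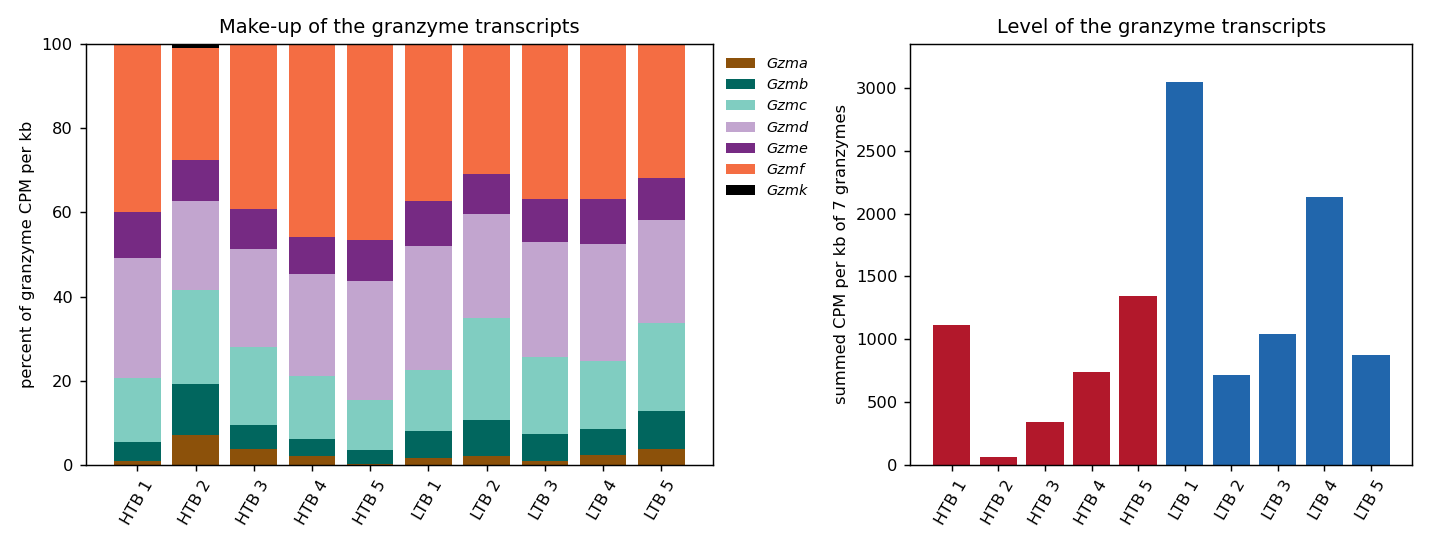
Left, percent of each of the 7 granzymes in their summed CPM per kilobase, stacked to 100 for each library; right, that sum in CPM per kilobase, for HTB in red and LTB in blue. Gzmf is the widest band in all 10 libraries, and HTB replicate 2 has the lowest sum, 64.2, and the widest bands of Gzma and Gzmb.

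To set the 10 genes against T cell transcripts of the same library, each was divided by the summed CPM of Cd3d, Cd3e and Cd3g, which encode chains of the T cell receptor complex. The CD3 sum was 16.3, 10.0, 6.30, 3.91 and 5.71 CPM in HTB and 71.7, 31.2, 32.3, 17.7 and 14.8 CPM in LTB. None of the 10 ratios passed a two-sided exact permutation test (adjusted p between 0.90 and 0.984, with 0.1 CPM added to both terms), and none had an unadjusted p below 0.05. The differences in log2 ratio, HTB minus LTB, ran from 0.02 for Gzmb to 0.61 for Gzmf, with SDs within a group of 0.42 to 2.38. For Nkg7 the ratio was 0.624 to 1.68 in HTB and 0.767 to 1.41 in LTB, the narrowest range of the 10 on the log2 scale. Gzmf spanned 1.40 to 88.5 in HTB and 5.74 to 36.2 in LTB. A p above the threshold with this spread does not show that the ratios were equal. The sign of the difference depended on the denominator: divided by Cd8a and Cd8b1, or by the NK cell genes Ncr1, Klrb1c and Klrd1, all but Gzmf were below 0, with Gzmb at -0.39 and -0.45 and Nkg7 at -0.28 and -0.34. None of the 10 passed with either denominator. The ratio of Gzmk, near the detection limit, depended on the CPM added: its difference was 0.34 with 0.1, -0.12 with 0.01 and 1.14 with 1, the last with an exact permutation p of 0.00794 (adjusted 0.0794). Without HTB replicate 3 it was 0.60 (exact permutation p = 0.0476, adjusted 0.476).

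Within HTB, replicate 2 had the lowest ratio of Gzma, Gzmb, Gzmc, Gzmd, Gzme, Gzmf, Prf1 and Nkg7 to CD3, while its CD3 sum was the second highest of the group. Of the 8 NK cell markers, Ncr1, Klrb1c, Klrd1, Klre1, Klra7 and Klra8 were lowest in replicate 2 among the HTB libraries. Klra7 was at 0.21 CPM there, where the rest of HTB had 1.61 to 2.72, and Klrb1c at 0.95 CPM, where the rest had 2.97 to 3.64. Ncr1 was at 0.79 CPM, where the rest had 1.32 to 2.25. The remaining markers went the other way: Klra4 was the highest of HTB at 39.5 CPM and Klrk1 the second highest at 5.10 CPM. The sum of the 8 markers, 51.2 CPM, was close to the 52.2 to 67.1 CPM of the other HTB libraries, but 39.5 CPM of it was Klra4. In replicate 2 the sum thus mostly reports Klra4, and it does not speak for the markers that were lowest there. Without HTB replicate 2, the difference for Gzmf was 1.57 on the log2 scale (exact permutation p = 0.0714, adjusted 0.333), and none of the 10 passed. HTB replicates 4 and 5, with low CD3 sums of 3.91 and 5.71 CPM, had the highest ratios of Gzmc, Gzmd, Gzme, Gzmf and Prf1 of all 10 libraries. NK cells lack these receptor chains on their surface and carry granules too, so the ratio is not a level per cytotoxic cell.

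**Figure D4:**
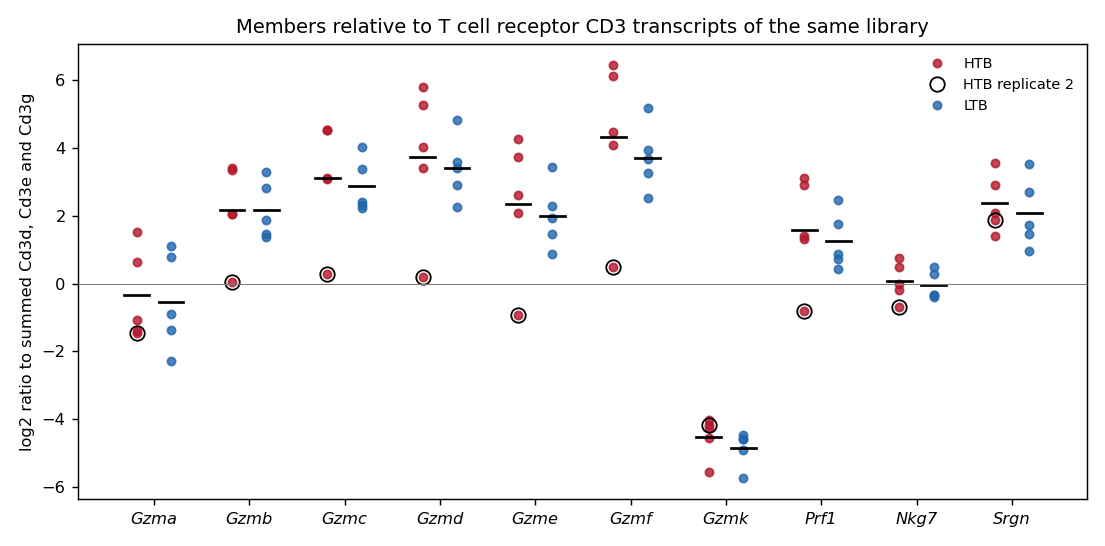
Log2 ratio of each of the 10 genes to the summed CPM of Cd3d, Cd3e and Cd3g in the same library, with 0.1 CPM added to both; points are libraries, black lines group means, and open circles mark HTB replicate 2. Group means lie within 0.61 of each other for every gene, and HTB replicate 2 is the lowest HTB point for Gzma to Gzmf, Prf1 and Nkg7.

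Other contents of the granule were read from a list of 9 genes, with a median log2 fold change of -1.07. Of these 3 were lower in HTB and 0 were higher, beside 7.51% of all genes tested called lower. The 3 were Ctsw (cathepsin W, -1.61 ± 0.29, SE; adjusted p = 0.00855), Ctsc (-1.28 ± 0.28; adjusted p = 0.0183), which encodes the protease that activates granzymes by trimming them, and Cst7 (-1.74 ± 0.41; adjusted p = 0.0235), which encodes the cystatin that restrains such cathepsins. Gzmg, a further close copy of Gzmd, did not pass, at -1.24 ± 0.78 on the log2 scale (adjusted p = 0.315). The lysosomal membrane genes Lamp1, Lamp2 and Cd63, which serve all cells, lay between -0.22 and -0.01 and did not pass.

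The machinery that moves and fuses granules was less uniform, with 4 of 15 genes lower and 0 higher, beside 7.51% of all genes tested called lower. The median was -0.24. Those 4 were Unc13d (Munc13-4, which primes granules for fusion; -1.19 ± 0.11, SE; adjusted p = 5.93e-04), Stx11 (a syntaxin at the fusion site; -0.65 ± 0.10), Coro1a (a regulator of actin; -1.13 ± 0.19) and Rab27a (the GTPase that docks granules; -1.10 ± 0.21). Unc13d lay between 8.86 and 11.7 CPM in HTB and between 20.7 and 26.4 CPM in LTB, a narrower spread than any of the 10 granule genes. Without HTB replicate 2, 7 of the 15 were lower and 2 higher, beside 1716 lower and 1324 higher of all 13551 genes tested in that fit.

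Serpins that inhibit granzymes protect cells from their own cargo. Of 4 serpin genes listed and tested, 3 were lower in HTB and 0 higher, beside 7.51% of all genes tested called lower. They were Serpinb9, the inhibitor of granzyme B (-0.85 ± 0.15, SE; adjusted p = 0.00629), Serpinb6a (-0.26 ± 0.06; adjusted p = 0.0158) and Serpinb6b (-0.52 ± 0.13; adjusted p = 0.0282). Whether each listed serpin inhibits a granzyme in these tumours was not tested.

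Cytokines that induce granzymes and perforin were listed with their receptors. From these 13 genes 10 could be tested, of which 8 were lower and 0 higher, beside 7.51% of all genes tested called lower. The median was -1.41. The smallest p-values belonged to Il12rb1, a chain of the interleukin-12 receptor (-2.15 ± 0.22, SE; adjusted p = 7.26e-04), Il2rg, the common gamma chain (-1.51 ± 0.22; adjusted p = 0.00298), and Il2ra, the high-affinity chain of the interleukin-2 receptor (-1.97 ± 0.38; adjusted p = 0.0107). Il2, Il12a and Il21 were too low to test. Without LTB replicate 1 the count was 6, beside 6.01% of all genes tested called lower.

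Transcription factors of cytotoxic lymphocytes gave 5 of 10 tested genes lower and 0 higher, beside 7.51% of all genes tested called lower. The median was -0.77. Runx3, which drives the cytotoxic program in CD8 T cells and NK cells, fell by 1.51 ± 0.22 (SE; adjusted p = 0.00346), Stat4 by 2.01 ± 0.32 (adjusted p = 0.00468) and Id2 by 1.55 ± 0.32 (adjusted p = 0.0136). Tbx21, which encodes T-bet, lay between 0.586 and 2.11 CPM in HTB and between 2.49 and 7.04 CPM in LTB and fell by 1.62 ± 0.40 (adjusted p = 0.0291), and Prdm1 fell by 1.02 ± 0.25 (adjusted p = 0.0277). Eomes, the T-box factor paired with T-bet, did not pass (-0.50 ± 0.21; adjusted p = 0.151).

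Markers of several cell types that could hold these transcripts were lower as well. The summed T cell markers ranged from 13.7 to 40.6 CPM over HTB and from 39.4 to 195 CPM over LTB, and 7 of 9 were lower, or 4 without LTB replicate 1. NK cell markers summed to 51.2 to 67.1 CPM against 70.03 to 146 CPM, with 4 of 8 lower, or 2 without LTB replicate 1 and 8 without HTB replicate 2. Of all genes tested, 7.51% were called lower with all libraries, 6.01% without LTB replicate 1 and 12.7% without HTB replicate 2. The gene with the highest level among the NK cell markers, Klra4, did not pass (-0.29 ± 0.11, SE; adjusted p = 0.104). All 4 regulatory T cell markers were lower, with sums of 8.26 to 13.9 against 18.5 to 36.5 CPM, but without LTB replicate 1 the count was 1. Of 8 mast cell and basophil markers tested, 6 were lower, with sums of 6.85 to 26.4 against 36.2 to 187 CPM and Mcpt1 at 0 reads in all of HTB. Macrophage markers summed to 181 to 314 against 268 to 683 CPM with 2 of 6 lower, or 1 without HTB replicate 2. Neutrophil markers summed to 5.05 to 24.6 against 7.79 to 55.6 CPM and passed in 0 of 4. Their median log2 fold change was -0.55, but 0.98 without LTB replicate 1. Platelet markers summed to 27.3 to 34.6 against 30.3 to 147 CPM and passed in 0 of 3, with a median of -1.14, or -0.14 without LTB replicate 1. Of 3 plasmacytoid dendritic cell markers tested 1, Tcf4, was higher in HTB and 0 were lower, with a median log2 fold change of -0.68. Without HTB replicate 2, 1 was lower, 1 higher and the median was -1.60. Tcf4 had a mean of 155 CPM in HTB and 113 CPM in LTB, far above Siglech (0.57 and 0.96 CPM) and Ccr9 (0.51 and 0.81 CPM). The rise of Tcf4 thus does not speak for the other markers of these cells. The part of these cells in the levels of the 10 genes was not tested.

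The position of the genes set a further comparison. In the deposited table (GRCm38) Gzmb to Gzmf lie on chromosome 14, minus strand, from the start of Gzme at 56117619 to the end of Gzmb at 56262260, and the mast cell protease genes lie on the side of Gzme. These spans cover exons and introns together. Within 200 kb of the granzymes on that chromosome the table lists 16 genes, of which 12 were tested, and Cma2, Mcpt1, Mcpt9 and Atp12a had too few reads. The proteases Mcpt2 (-5.44 ± 0.97, SE; adjusted p = 0.00781), Cma1 (-3.26 ± 0.69; adjusted p = 0.0155) and Mcpt4 (-3.07 ± 0.67; adjusted p = 0.0174) were lower, with 13, 252 and 250 reads over HTB and 542, 2326 and 2010 over LTB. Mcpt8 and Ctsg, the proteases next to Gzme, did not pass (-1.63 ± 0.57 and -1.44 ± 0.77). HTB replicate 2 held 104 reads of Cma1 and 97 of Mcpt4, the most of any HTB library, beside the fewest reads of Gzmb to Gzmf. Ctsg, with 9 reads in that library and 66 to 188 in the other HTB libraries, was low there as the neighbouring granzymes were. Gzmn lies on the plus strand across part of Gzmf, and the strand setting of the counting is not given in the sources used here, but it had only 28 reads over HTB and 55 over LTB.

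On chromosome 13 Gzma (113093827 to 113100981) and Gzmk (113171874 to 113180897), both on the minus strand, stand among 8 listed genes. None of the 4 tested neighbours passed: Dhx29 (-0.09 ± 0.10, SE), Ccno (-0.63 ± 0.22), Gpx8 (-0.01 ± 0.07) and Esm1 (0.20 ± 0.26). Mcidas had too few reads to test, as did Cdc20b. Cdc20b, whose span covers Gzma on the other strand, had 7 reads over HTB and 15 over LTB. Prf1 lies on chromosome 10 (61297546 to 61304263), Nkg7 on chromosome 7 (43437138 to 43438246) and Srgn on chromosome 10 (62494427 to 62530928). The deposited table puts Srgn on the plus strand, where GENCODE M21 and RefSeq have it on the minus strand.

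Promoters are shown for 5 genes because 5 of the transcription factors above fell. They are the 150 bases before the RefSeq start site (GRCm38.p6), read 5′ to 3′ on the gene's strand, with capitals for matches on either strand to a RUNX motif (TGTGGT), a T-box motif (AGGTGT), an AP-1 motif (TGANTCA) or a STAT motif (TTCNNNGAA). Those of Gzmb and Nkg7 are at chr14:56262335-56262484 (minus strand) and chr7:43436988-43437137 (plus strand).
Gzmb: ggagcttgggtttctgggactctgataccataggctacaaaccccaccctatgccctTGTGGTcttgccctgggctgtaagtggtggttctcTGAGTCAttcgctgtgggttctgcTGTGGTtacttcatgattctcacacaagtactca
Gzme: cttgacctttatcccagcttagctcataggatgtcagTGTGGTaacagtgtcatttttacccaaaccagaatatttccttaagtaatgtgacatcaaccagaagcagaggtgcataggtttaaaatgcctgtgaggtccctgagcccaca
Gzmf: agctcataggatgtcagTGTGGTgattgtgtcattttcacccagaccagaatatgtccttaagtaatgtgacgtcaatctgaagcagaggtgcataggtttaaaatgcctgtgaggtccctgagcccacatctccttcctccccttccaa
Gzma: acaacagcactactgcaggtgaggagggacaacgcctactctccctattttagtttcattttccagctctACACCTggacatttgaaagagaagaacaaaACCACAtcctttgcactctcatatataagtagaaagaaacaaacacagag
Nkg7: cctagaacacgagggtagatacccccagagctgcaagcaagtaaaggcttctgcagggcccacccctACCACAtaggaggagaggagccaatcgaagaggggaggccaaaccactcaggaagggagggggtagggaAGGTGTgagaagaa
RefSeq promoters were found for 10 of 10 genes, 11 in all because Srgn has an alternative start. The RUNX motif was in 8 of the 11, all but Gzmk and both of Srgn, and in 8.4% of all 32851 mouse promoters of the same length. The T-box motif was in 3 of 11 (Gzma, Prf1 and Nkg7; 6.9% of all), the AP-1 motif in that of Gzmb alone (4.2% of all) and the STAT motif in 0 (4.1% of all). Gzmb had a pair of RUNX matches on either side of the AP-1 match. In Gzmc, Gzmd, Gzme and Gzmf the match sat in the same stretch of sequences that were 88.0 to 96.0% identical, so they do not count as separate. A match describes these letters and is not evidence of binding.

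Which genes had the profile most like that of a granule gene was measured as the root mean square difference of log2(CPM + 0.5) over the 10 libraries, each gene centred on its mean. Depth and cell mix are shared by all genes of a library. Among the 10, Gzmd and Gzme were closest (0.126), followed by Gzmd and Gzmf (0.20), Gzmc and Prf1 (0.205) and Gzmb and Prf1 (0.226). The closest pair is also the pair of highest sequence identity, while Prf1 encodes a protein of another family than Gzmc and Gzmb.

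Outside the 10, Prf1 was nearest to Tnfrsf9 (0.107), which encodes the activation receptor 4-1BB, where Prf1's own spread was 1.19. Tnfrsf9 had 39.4, 5.85, 13.4, 30.9 and 49.6 CPM in HTB and 120, 42.8, 52.3, 98.2 and 46.3 CPM in LTB. It followed Prf1 library by library, HTB replicate 2 included, and likewise did not pass (-1.37 ± 0.52, SE; adjusted p = 0.111). Next to Prf1 came Klra7, an NK cell receptor of the Ly49 family (0.353), and the chemokine Ccl2 (0.40). Gzmb had Tnfrsf9 (0.262), Klra7 (0.34) and the checkpoint receptor Ctla4 (0.378) as its nearest genes.

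Among the genes nearest to Nkg7 were Cst7 (0.212) and Gimap3 (0.223), both lower in HTB. For Srgn the nearest were Flrt3 (0.166), AA467197 (0.261) and Adam8 (0.28), a metalloprotease of myeloid cells, also lower in HTB. Flrt3 was at 0.332 CPM or less in every HTB library, where the added 0.5 flattens its profile. Gzma had no close neighbour: Osm (0.704), Klrb1c (0.744) and Trem1 (0.77) were nearest, against a spread of its own of 1.23. HTB replicate 2 was thus low in the profile shared by Prf1, Gzmb and Tnfrsf9, but not in that of Srgn.

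**Figure D5:**
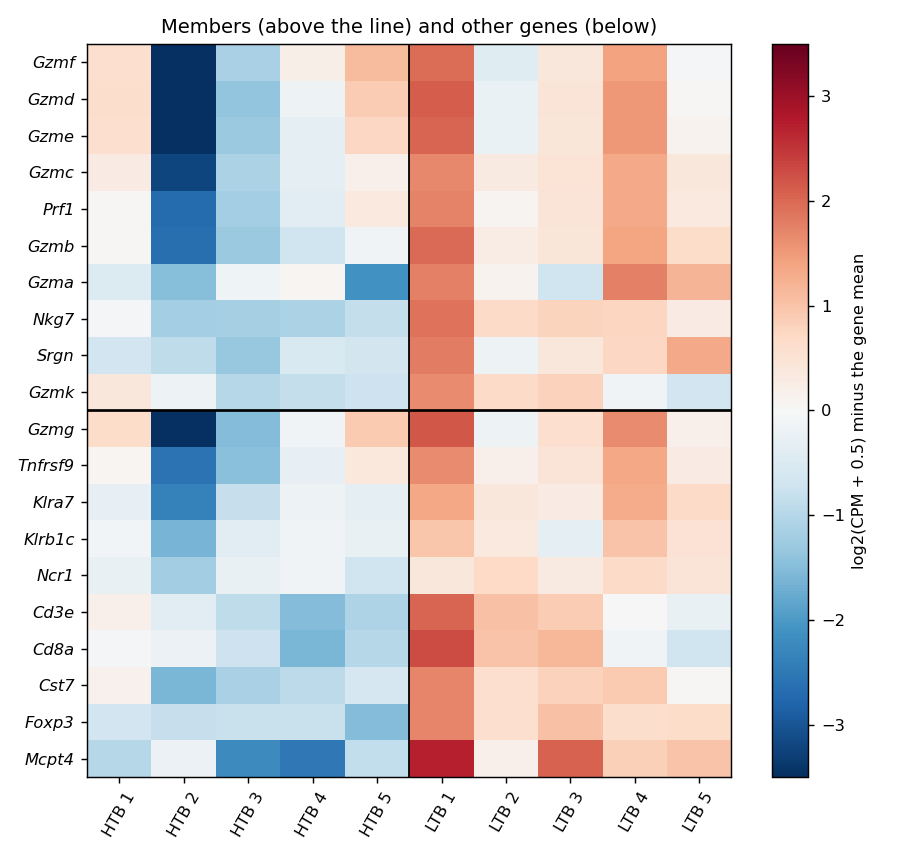
Level of each gene (rows) in each library (columns) as log2(CPM + 0.5) minus the gene's mean over the 10 libraries, from blue (low) to red (high); the line separates the 10 granule genes from other genes. The column of HTB replicate 2 is darkest for Gzmb to Gzmf, Prf1, Gzmg and Tnfrsf9 and close to the other HTB libraries for Srgn, Nkg7 and Cd3e.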

How the data were processed

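RNA-seq of 10 whole-tumour libraries (5 HTB, 5 LTB) was used as deposited. Per the labels' protocols, RNA came from a column kit and libraries from a SMARTer mRNA kit, and per the submitters' processing notes the build is GRCm38, or mm10. Not given in the sources used here are the aligner, the counter, its strand setting and the annotation. The deposited table gives estimated counts per gene, of which 86.4% were whole (within 1e-09). The others were rounded, by at most 0.5. It also gives group means that, from their values, are FPKM by the authors, and the authors' log2 fold change with its p-value and its q-value, from DESeq2 per the file headers. A nameless line was dropped. Of the gene IDs, 18101 (99.3%) matched RefSeq.

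Counts were tested with edgeR 4.0.16 (TMM factors, filterByExpr, quasi-likelihood test on group, Benjamini-Hochberg adjustment over 13469 genes, threshold 0.05) in R 4.3.3. On simulated data with 13469 genes for HTB against LTB, the test recovered 36% of the genes set to change 1.5-fold, 80% of those at 2-fold, 94% of those at 4-fold and 98% of those at 8-fold, and 5.52% of its calls were false. In the simulation genes varied independently, no library stood apart, and only 50 genes per fold, all above 1 CPM on average, were changed. These rates therefore need not hold for the real libraries. CPM used library totals scaled by TMM factors. Transcript lengths are those implied by the authors' group means of FPKM and counts. Ratios to CD3 and granzyme shares were tested by two-sided exact permutation. Coding sequences came from GENCODE M21 and were aligned with Biopython 1.88, and promoters came from RefSeq. Counting intervals would cover counting error only, as the reads carry no molecular identifiers. No libraries of a group looked like copies (chi-square per degree of freedom at least 10.56).

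The genes and lists were chosen with earlier results of these data known. The rule for names was: all 10 genes, at most the 3 of smallest p in each other list and any that complete a count of 5 or fewer, all listed genes within 200 kb of the granzymes, and the 3 tested genes nearest in profile to Prf1, Gzmb, Gzma, Nkg7 and Srgn, leaving out symbols of predicted genes. Some genes that this rule selects, and a list that holds one of them, are not reported here. Genes named outside it, after their values were seen, are Lamp1, Lamp2, Cd63, Eomes and Klra4, and the markers of HTB replicate 2 and of MC38. Alternatives were edgeR with upper-quartile or DESeq2 size factors, the Wald test of DESeq2 1.42.0, limma 3.58.1 voom, no filter, a minimum of 1 CPM in 5 libraries, a block on the replicate number, other denominators and added values for the CD3 ratio, and the fits without each library or without HTB replicate 2 and LTB replicate 1. Adding Gzmg, Gzmm and Gzmn to the granzyme shares was chosen after seeing the data.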

Additional observations from a re-analysis of the deposited data

Results flagged for a closer look

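Nkg7 had a library that stood apart in each group. In HTB, replicate 1 had 14.3 CPM, where the other 4 libraries had 6.22 to 8.06 CPM. In LTB, replicate 1 had 56.4 CPM, where the others had 18.1 to 25.7 CPM. Each gap to the next library, as a share of the group's range, was above the 95% critical value of Dixon's test for 5 values (0.71). Of 24 groups looked at, 2 were above it, and chance alone gives about 1 in 20. Without LTB replicate 1 Nkg7 had a log2 fold change of -1.48 (edgeR adjusted p = 0.00849).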

How the results depend on the processing

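Over the alternatives, 167 of 179 values of the 10 genes kept their direction and their side of the threshold, 8 lost the call (all of them Gzmb), 4 gained it and 0 reversed, and all 179 log2 fold changes were below 0. The cause of these shifts was not tested. Gzmb also lost its call when low counts were not filtered (adjusted p = 0.0539). The number of genes called among all tested was 1537, against 2527 with the DESeq2 Wald test, 2908 without HTB replicate 2 and LTB replicate 1 together, and 736 to 3040 when each library was left out in turn (736, 742 and 931 when HTB replicate 3, 4 or 5 was missing, 940 when LTB replicate 3 was, and 3040 when HTB replicate 2 was). Granzyme shares that passed numbered 0, also with Gzmg, Gzmm and Gzmn added, and 0 to 2 when each library was left out, the 2 without HTB replicate 2. Whether the replicate numbers pair the libraries was not settled. Over all genes tested, the correlations of deviations within the same number were 0.07, -0.01, -0.02, 0.10 and 0.10. Not every HTB library was nearest to the LTB library of its own number. With the replicate number as a block 971 genes were called and Prf1 passed (-1.58, adjusted p = 0.0439). The SE of each of the 10 genes was smaller with this block, for Gzmb 0.276 against 0.49 and for Nkg7 0.148 against 0.341. For the ratios and shares the smallest p over 5 pairs is 0.0625. Gzmk could not be tested with at least 1 CPM in 5 libraries. Depth limits Gzmk most, with 44 reads over HTB.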
